A study of Mus musculus with 2 samples.

Results

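Chemokines and their receptors were examined in the bulge and the hairshaft, laser-dissected structures of the mouse hair follicle. The genes were chosen by name: every probe set whose single platform gene symbol was a Ccl, Cxcl or Cx3cl ligand or a Ccr, Cxcr or Cx3cr receptor with a number. This gave 75 of 45101 probe sets, which stood for 47 of 18194 genes, namely 32 ligands and 15 receptors. The bulge group was 1 array of bulge tissue and the hairshaft group 1 array of hairshaft tissue, both from untreated C57Bl6 mice of 21 days with no allele or agent named. Neither the number of animals behind an array nor the way each region was recognised is given in the sources used here. With 1 array per structure there is no spread between replicates to compare with, so all folds and counts describe these 2 arrays, and no test was run.

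Chemokines are small secreted proteins that bind to matrix sugars and steer cells that carry the matching G protein-coupled receptor. One group, often called homeostatic, is made steadily and positions resident cells, and the inflammatory group is induced by injury, microbes or interferon. In skin, keratinocytes, fibroblasts, vessels and resident leukocytes make them, and the receptors sit mostly on leukocytes. Follicle epithelium is known to release chemokines that bring Langerhans cell precursors and T cells to the hair follicle.

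Values are log2 GCRMA values, and for a gene with several probe sets the one with the higher mean level is reported. A background floor was set at 2.68 on each array, from probe sets of olfactory and vomeronasal receptors. A gene at or below the floor on 1 array was set to the floor there, and its fold is then written as "at least". Of the 47 genes, 28 (59.6%) were above the floor on at least 1 array, beside 73.3% of all 18194 genes. Of these 28, 24 were above it on both arrays. The other 4 (Ccl11, Ccl12, Cxcl11 and Cxcr2) were above it on 1 array. The remaining 19 reached the floor on neither array. A gene is called bulge-high below where its value on the bulge array was at least 2-fold above that on the hairshaft array, and hairshaft-high in the opposite case.

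The arrays were checked against markers of their labels, and they did not divide as the labels would have it. Of 8 bulge stem cell markers, 7 were bulge-high. Of 10 hair shaft markers (keratins and a keratin-associated protein), 7 were also bulge-high and 0 hairshaft-high. The bulge array carried skeletal muscle (10 of 10 markers bulge-high by 8-fold or more) and adipocyte markers (7 of 7). Keratinocyte markers were under 2-fold apart for 9 of 9. In tissue pieces of this kind, fewer cells of a type and less RNA per cell cannot be told apart.

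A few chemokine genes were at least 2-fold apart and most were not. Cxcl12, Ccl11, Ccl22 and Ccl20 among the ligands and Cxcr4 and Ccr2 among the receptors were bulge-high. Of these, Ccl20, Cxcr4 and Ccr2 were each past 2-fold with only 8 of the 10 alternatives given below. Cxcr6, a receptor of tissue T cells, was the 1 hairshaft-high member. Of the 28 genes above the floor, 6 (21.4%) were thus bulge-high, against 11.4% of all 13329 genes above the floor. The 1 hairshaft-high gene was 3.57% of the members, against 4.91% of all genes. Without a floor the counts were again 6 and 1, now of 47 genes, beside 8.46% and 3.64% of all 18194 genes. At a limit of 8-fold, 2 members (Cxcl12 and Ccl11) were bulge-high, beside a background of 3.02%, and 1 (Cxcr6) hairshaft-high, beside 0.188%.

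Among both ligands and receptors most genes were under 2-fold apart. Over all genes above the floor, 11.4% were bulge-high and 4.91% hairshaft-high. Of 19 ligands above the floor, 4 (21.1%) were bulge-high, 0 hairshaft-high and 15 neither. Their median log2 difference (bulge minus hairshaft) was 0.0026. Of 9 receptors above the floor, 2 (22.2%) were bulge-high, 1 (11.1%) hairshaft-high and 6 neither, and their median was 0.00. The median over all genes above the floor was also 0.00. By the classes assigned here, 2 of 4 CC ligands listed as homeostatic and above the floor (Ccl22 and Ccl20) were bulge-high. So were 1 of 6 inflammatory CC ligands and 1 of 5 homeostatic CXC and CX3C ligands above the floor. The classes come from a list made with earlier results of these data known. They are too small to set against the 11.4% of all genes. None of the 4 inflammatory CXC ligands above the floor (Cxcl1, Cxcl9, Cxcl10 and Cxcl11) was 2-fold apart.

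**Figure D1:**
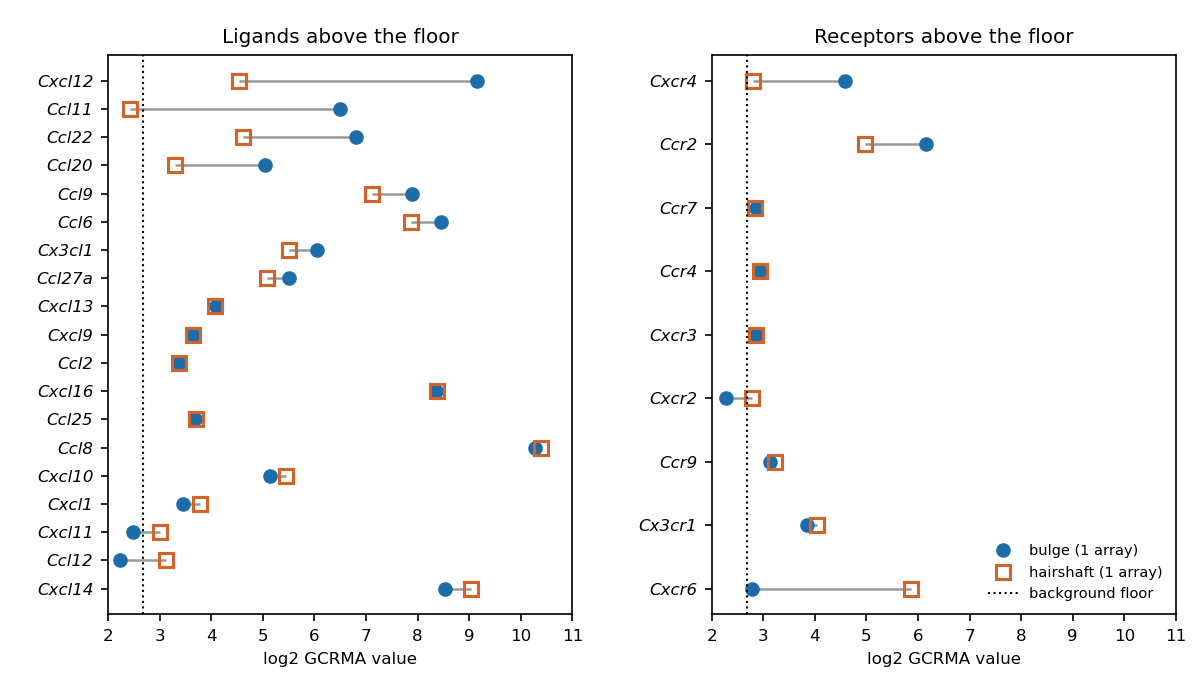
Log2 GCRMA value (x axis) of each chemokine ligand (left) and receptor (right) above the background floor, 1 bulge array (filled circle) and 1 hairshaft array (open square) per gene, ordered by the difference. Long gaps to the right in the bulge stand at Cxcl12, Ccl11, Ccl22, Ccl20, Cxcr4 and Ccr2, and the reverse gap at Cxcr6 (2.78 in the bulge, 5.87 in the hairshaft).

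The windows before the start sites of 4 of the genes at least 2-fold apart are shown as examples. These genes are the bulge-high pair Cxcl12 and Cxcr4, the bulge-high keratinocyte ligand Ccl20, and the hairshaft-high Cxcr6. Of these, Cxcr4 and Ccl20 fell under 2-fold with some of the alternatives given below. Ccl11 had no window in the reference used, and Ccl22 and Ccr2 are not shown. Each window is the 250 bases before the RefSeq start in GRCm38.p6, written 5′ to 3′ on the gene's strand. Capitals mark matches, on either strand, to 5 motifs. These were the kappaB consensus of NF-kappaB, the TATA motif TATAAA near which transcription starts, the GC box GGGCGG that Sp1 binds, the AP-1 motif TGANTCA bound by Fos and Jun proteins, and the GAS motif TTCNNNGAA bound by STAT proteins. The positions are chr6:117168285-117168534 (plus strand) for Cxcl12, chr1:128592300-128592549 (minus strand) for Cxcr4, chr1:83116516-83116765 (plus strand) for Ccl20 and chr9:123806227-123806476 (plus strand) for Cxcr6.
Cxcl12: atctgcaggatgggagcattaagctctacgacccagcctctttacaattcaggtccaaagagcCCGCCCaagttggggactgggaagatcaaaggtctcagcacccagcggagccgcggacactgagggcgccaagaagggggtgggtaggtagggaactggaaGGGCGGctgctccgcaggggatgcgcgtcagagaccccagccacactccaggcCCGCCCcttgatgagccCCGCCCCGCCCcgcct
Cxcr4: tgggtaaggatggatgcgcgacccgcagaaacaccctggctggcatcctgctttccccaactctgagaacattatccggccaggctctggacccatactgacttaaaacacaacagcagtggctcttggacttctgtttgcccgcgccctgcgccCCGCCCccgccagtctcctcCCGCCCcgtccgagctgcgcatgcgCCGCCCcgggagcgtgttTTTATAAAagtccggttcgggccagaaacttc
Ccl20: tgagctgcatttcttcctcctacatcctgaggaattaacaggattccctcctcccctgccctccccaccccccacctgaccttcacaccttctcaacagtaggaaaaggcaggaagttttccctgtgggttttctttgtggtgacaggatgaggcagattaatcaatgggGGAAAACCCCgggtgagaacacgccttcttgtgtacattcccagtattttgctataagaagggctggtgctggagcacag
Cxcr6: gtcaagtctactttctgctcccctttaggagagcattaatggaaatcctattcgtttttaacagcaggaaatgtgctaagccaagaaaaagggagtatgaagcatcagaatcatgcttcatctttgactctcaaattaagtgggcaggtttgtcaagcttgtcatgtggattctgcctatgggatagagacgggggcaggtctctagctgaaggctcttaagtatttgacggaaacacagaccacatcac

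The windows of Cxcl12 and Cxcr4 were rich in G and C, at 64.4% and 61.2%, with 14 and 19 CpG dinucleotides. Over 32841 such windows of all genes the medians were 52.4% and 6 CpG. The Cxcl12 window held 5 matches to the GC box and the Cxcr4 window 3, while overlapping TATA matches on both strands covered 32 to 25 bases before the Cxcr4 start. The Ccl20 window held a kappaB match from 80 to 71 bases before the start. The Cxcr6 window held 0 matches to the 5 motifs. RefSeq windows matched 34 of the 47 genes, some with several starts. The members as a whole were not rich in G and C, with medians of 51.2% over 25 ligand windows and 46.4% over 13 receptor windows. A GC box was present in 5 of 25 ligand windows (20%), 1 of 13 receptor windows (7.69%) and 32.7% of all windows. A kappaB match was present in 6 of 25 ligand windows (24%), 2 of 13 receptor windows (15.4%) and 3.9% of all windows. The 6 ligands were Ccl9, Ccl20, Cxcl1, Cxcl2, Cxcl3 and Cxcl10, of which Ccl20 alone was bulge-high, and the 2 receptors were Ccr3 and Ccr6. A TATA match was present in 9 of 25 ligand windows (36%), 1 of 13 receptor windows (7.69%) and 12.4% of all windows. AP-1 was matched in 12% of ligand, 15.4% of receptor and 6.75% of all windows, and GAS in 8%, 7.69% and 7.02%. These matches describe letters only and say nothing of binding.

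Cxcl12, a homeostatic ligand that holds stem and immune cells in place and is made by stroma and vessels, had the largest difference of the chemokine genes. It was 9.15 on the bulge array against 4.54 on the hairshaft array. This 24.4-fold difference ranked 170 among 13329 genes. Its next probe set read 7.40 and 2.76, with a log2 difference of 4.64 beside 4.61, and the remaining one, at 2.32 and 2.30, was not above the floor. The bulge was therefore far higher by both probe sets that gave a signal. With the mean of its 3 probe sets the log2 difference was 3.09, and with the offset (16 added to the linear values) it was 3.89.

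Cxcr4, the signalling receptor of Cxcl12, differed in the same direction at a low level. It was 4.58 on the bulge array against 2.81 on the hairshaft array, which is 3.42-fold. The hairshaft value stood just above the floor, and 1 probe set measured the gene. The log2 difference of 1.77 became 0.37 with the 99th percentile floor, 0.80 with the offset and 1.11 with the floor at the median of all probe sets. Cxcl12 and Cxcr4 formed the 1 pair, of 9 listed pairs with both genes above the floor, in which both genes were bulge-high. Ackr3, an atypical receptor that removes Cxcl12 and is not among the 47 genes, was 9.44 on the bulge array against 10.57 on the hairshaft array, 2.19-fold higher in the hairshaft.

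Markers of vessels and of mural cells, which can make Cxcl12, were higher in the same array. Of 12 blood endothelial markers, 11 were bulge-high, beside 11.4% of all genes above the floor, and 0 were hairshaft-high. Their mean log2 level was 7.06 on the bulge array against 3.63 on the hairshaft array. Of 8 pericyte and smooth muscle markers, 7 were bulge-high, beside the same 11.4%, with mean levels of 9.53 and 6.61. The largest of these differences, 89.9-fold, was that of Des, which skeletal muscle also makes. Skeletal muscle and adipocyte markers differed more, with median log2 differences of 11.40 and 8.47. The medians of the endothelial and mural lists were 3.26 and 2.35. Fibroblast markers were divided, with 3 of 10 bulge-high, 3 of 10 hairshaft-high and mean levels of 10.30 and 10.08. The part of these cells in the Cxcl12 and Cxcr4 differences was not tested.

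The eosinophil attractant Ccl11, made by fibroblasts among others, was 6.49 on the bulge array against 2.42 on the hairshaft array, below the floor there. Its fold was at least 14.1, and it rested on 1 probe set. The log2 difference of 3.82 was 2.28 with the 99th percentile floor, 3.02 with the median floor and 2.24 with the offset. Its receptor Ccr3 read 2.23 on both arrays, below the floor. Fibroblast markers Pi16, Mfap5 and Dpt were also higher in the bulge, at 9.28-fold, 4.11-fold and 3.62-fold, while Col1a1, Col1a2 and Col3a1 were higher in the hairshaft. The part of the fibroblasts in the Ccl11 difference was not tested.

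Ccl22, a ligand made by dendritic cells and macrophages that draws T cells through Ccr4, was 6.80 on the bulge array against 4.61 on the hairshaft array. This 4.55-fold difference stayed above 2-fold with each of 10 alternatives (log2 1.65 to 2.19). Ccr4 read 2.94 on both arrays, and Ccl17, the other ligand of Ccr4, was not above the floor (2.62 and 2.60). So near the floor, no statement can be made on a difference in the receptor or in Ccl17. Of the markers of Langerhans and dendritic cells, 0 of 8 were bulge-high, 1 (H2-Eb1) was hairshaft-high, and the mean levels were 8.33 and 9.25. These means lean on H2-Eb1, at 6.09 on the bulge array against 11.47 on the hairshaft array, 41.7-fold. H2-Aa, H2-Ab1 and Cd74 were at most 1.35-fold apart, and the list median of the log2 differences was -0.40. Of 10 macrophage markers, 10 were under 2-fold apart, with mean levels of 7.85 and 7.71. The part of these cells in the Ccl22 difference was not tested.

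Ccl20, a keratinocyte ligand known to be released at the follicle opening and to attract Langerhans cell precursors through Ccr6, was 5.04 on the bulge array against 3.29 on the hairshaft array, 3.37-fold apart. Its log2 difference of 1.75 fell under 2-fold with the 99th percentile floor (0.83) and the offset (0.93). Ccr6 was 2.48 and 2.49, at or below the floor. Keratinocyte markers had mean levels of 13.76 on the bulge array against 13.70 on the hairshaft array. The part of these cells in the Ccl20 difference was not tested.

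Ccr2, the receptor that brings monocytes into tissue, was 6.15 on the bulge array against 4.98 on the hairshaft array by its leading probe set, a 2.26-fold difference. Its other 3 probe sets read 3.52 and 3.52, 3.49 and 3.54, and 3.47 and 3.47, with no such gap. With the mean of the 4 probe sets the log2 difference was 0.28 in place of 1.18, and with the offset 0.88, so the difference rests on 1 probe set. Of its ligands, Ccl2 read 3.38 on both arrays and Ccl7 was not above the floor (2.23 and 2.43).

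Cxcr6, a receptor carried by resident T cells and natural killer T cells, was the member with a large difference toward the hairshaft. It was 2.78 in the bulge, just above the floor, and 5.87 in the hairshaft. This 8.54-fold difference ranked 22 in that direction among 13329 genes. Its other probe set read 2.69 and 4.55, so that both were higher in the hairshaft. The log2 difference of -3.09 lay between -1.66 and -3.16 with 10 alternatives, past 2-fold in each. Cxcl16, its membrane-bound ligand, was 8.36 on the bulge array against 8.37 on the hairshaft array, and its other probe set read 8.01 and 7.90. The receptor therefore differed while the ligand stood level.

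Markers of T cells stood in the same direction as Cxcr6. Of 9 T cell markers, 4 (Cd3d, Trat1, Cd3e and Cd2) were hairshaft-high, beside 4.91% of all genes above the floor, and 0 were bulge-high. Their mean levels were 5.11 on the bulge array against 6.07 on the hairshaft array. The largest of these folds was 3.21, for Cd3d. Of 8 mast cell markers, 4 were hairshaft-high, beside the same 4.91%, and 0 bulge-high, with mean levels of 4.55 and 5.46. The part of these cells in the Cxcr6 difference was not tested.

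**Figure D2:**
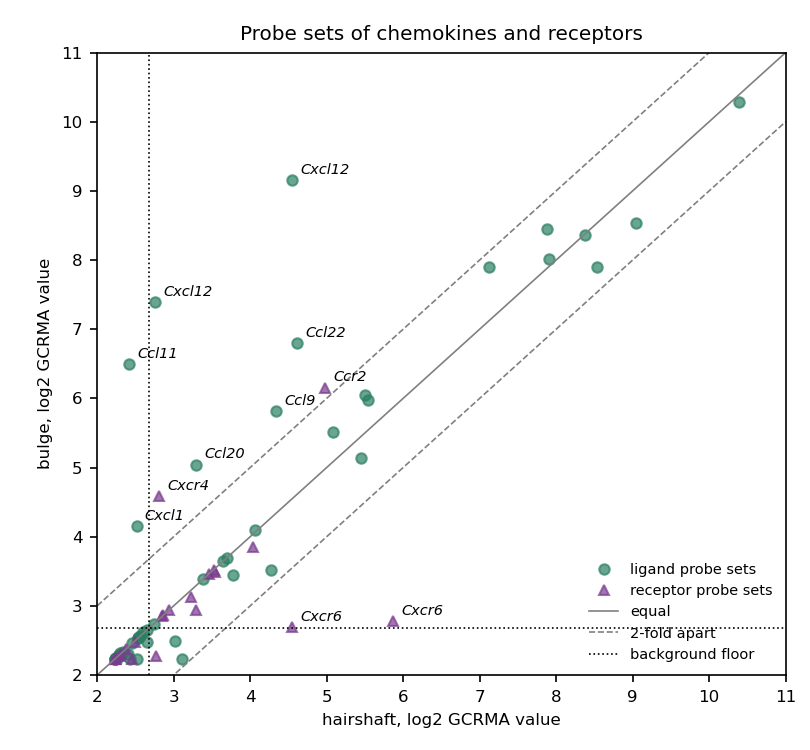
Log2 GCRMA value of each of the 75 probe sets on the hairshaft array (x axis) and the bulge array (y axis), ligands as circles and receptors as triangles, with the line of equality, the 2-fold lines and the background floor. The 2 Cxcl12 probe sets above the floor lie far on the bulge side and both Cxcr6 probe sets on the hairshaft side, while many others sit on the line near the floor.

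Other ligands listed as homeostatic were close on both arrays. Cxcl14, a ligand of resting epithelium, was 8.53 on the bulge array against 9.04 on the hairshaft array, and its other probe set 7.89 and 8.53, 1.42-fold apart by the leading one. Ccl27a, the keratinocyte ligand that draws skin-homing T cells through Ccr10, was 5.51 and 5.09, and Ccr10 read 2.23 on both arrays. The Ccl27a value comes from 1 probe set of the _x_at kind, whose probes can bind related transcripts. Cx3cl1, a membrane-bound ligand, was 6.05 and 5.51 by its leading probe set and 3.52 and 4.27 by another, so its direction was not settled. Its receptor Cx3cr1, carried by Langerhans cells and macrophages, was 3.85 and 4.04. The B cell ligand Cxcl13 was 4.10 and 4.07, and Ccl25 was 3.69 and 3.70.

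The inflammatory ligands Ccl8, Ccl9 and Ccl6 had signals well above the floor and were under 2-fold apart, while Ccl3 and Ccl4 were not above the floor. Ccl8, which acts on Ccr8 in the mouse, was 10.28 on the bulge array against 10.39 on the hairshaft array, while Ccr8 read 2.24 on both arrays. Ccl9 was 7.90 on the bulge array against 7.13 on the hairshaft array, 1.71-fold, and its second probe set read 5.82 and 4.34. With the mean of these probe sets Ccl9 passed 2-fold (log2 1.13). Its neighbour in the genome, Ccl6, was 8.45 and 7.88, 1.49-fold, and 5.97 and 5.54 by its second probe set. For these 2 genes each probe set read higher in the bulge.

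The interferon-induced ligands of Cxcr3 leaned slightly toward the hairshaft or read the same. Cxcl10 was 5.14 on the bulge array against 5.44 on the hairshaft array, 1.24-fold apart. Cxcl11 was 2.49 and 3.02, at or below the floor in the bulge, and Cxcl9 was 3.65 on both arrays. Cxcr3, their receptor on activated T cells, read 2.86 on both. Ccl12, a monocyte attractant, was 2.23 and 3.11, and its fold of at least 1.35 is under 2.

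Neutrophil attractants gave little signal. Cxcl2, Cxcl3 and Cxcl5 were not above the floor. Cxcl1 was 3.45 on the bulge array against 3.78 on the hairshaft array by its leading probe set, and 4.16 and 2.51 by another. With plain probe sets alone it was higher in the bulge (log2 1.48), so its direction depended on the probe set. Their receptor Cxcr2 was 2.27 and 2.77. Of 7 neutrophil markers 4 were not above the floor, and S100a8 and S100a9, which keratinocytes also make, were higher in the bulge by log2 differences of 2.81 and 2.37.

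Most receptors were at or near the floor. Of the receptors, 60% were above the floor on at least 1 array, as were 59.4% of the ligands, beside 73.3% of all genes. Ccr1, Ccr3, Ccr6, Ccr8, Ccr10 and Cxcr5 were above it on neither array. Ccr4, Ccr7 and Cxcr3 passed it with values between 2.85 and 2.94 that differed by under 0.005 between the arrays. Ccr9 was 3.13 and 3.23. The ligands above the floor on neither array were Ccl1, Ccl3, Ccl4, Ccl5, Ccl7, Ccl17, Ccl24, Ccl28, Cxcl2, Cxcl3, Cxcl5, Cxcl15 and Cxcl17. A value at the floor does not show that the gene was silent.

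Of 25 ligand and receptor pairs listed, 21 had both genes measured and 9 had both above the floor. In 5 pairs only the ligand was above the floor, in 3 only the receptor, and in 4 neither. Beside Cxcl12 and Cxcr4, no pair of the 9 had both genes at least 2-fold apart. In the pairs of Ccl22 with Ccr4, Ccl2 with Ccr2 and Cxcl16 with Cxcr6, 1 gene was 2-fold apart and the other was not. Of the latter genes Cxcl16 had a signal far above the floor, while Ccr4 and Ccl2 were dim and read the same on both arrays.

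**Figure D3:**
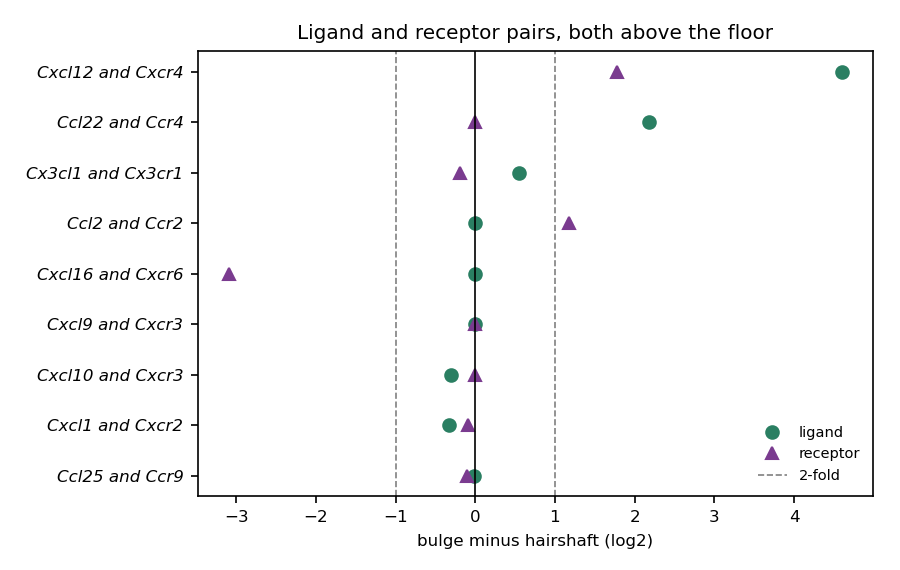
Log2 difference, bulge minus hairshaft (x axis), of the ligand (circle) and the receptor (triangle) in the 9 listed pairs with both genes above the floor; dashed lines mark 2-fold. Cxcl12 (4.61) and Cxcr4 (1.77) lie together on the right, and Cxcr6 (-3.09) lies far left of Cxcl16 (-0.0078).

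Several of these genes lie side by side in GRCm38.p6, and many of the neighbours gave no signal above the floor. Ccl2, Ccl7, Ccl11, Ccl12, Ccl8 and Ccl1 are consecutive protein-coding genes, and 1 of the 6, Ccl11, was at least 2-fold apart, with 4 above the floor. In the run Ccl5, Ccl9, Ccl6, Ccl3 and Ccl4, 2 of 5 were above the floor and 0 were 2-fold apart. In the run Cxcl3, Cxcl15, Cxcl1 and Cxcl2, 1 of 4 was above the floor. Ccl22 lies beside Cx3cl1 and Ccl17, and was the 1 of the 3 that was 2-fold apart.

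Probe sets of the same gene gave the 1 repeat measurement in these data, on the same RNA. Of 11 member genes for which 2 or more probe sets passed the floor, these pointed one way in 6 (Ccl6, Ccl9, Ccr9, Cxcl12, Cxcl14 and Cxcr6). Probe sets pointed both ways in 4 (Ccr2, Cx3cl1, Cxcl1 and Cxcl16). Any log2 difference of at least 0.005 was given a direction here, however small. For Cxcl16 the differences were -0.0078 and 0.11, and the 1 reverse value of Ccr2 was -0.05. Of the 41 probe sets above the floor, 8 differed by under 0.005 between the arrays, the highest of them at 3.65.

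**Figure D4:**
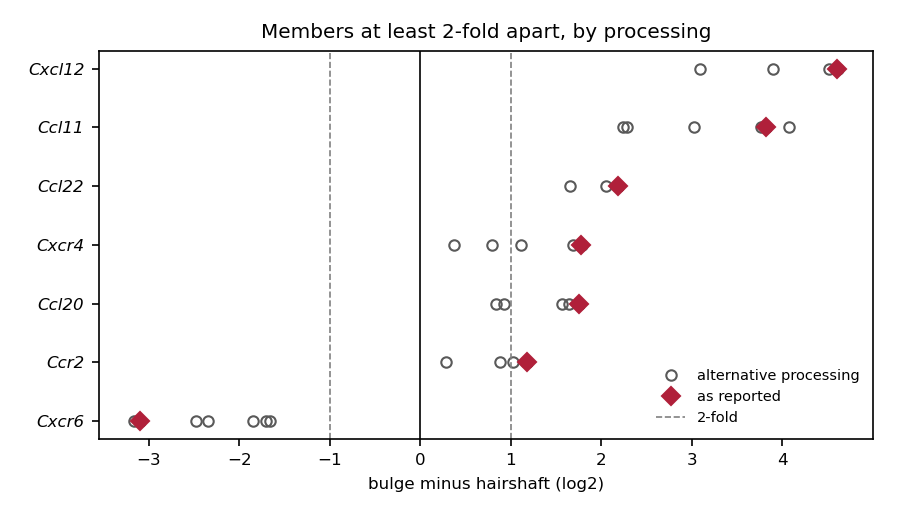
Log2 difference, bulge minus hairshaft (x axis), of the 7 members at least 2-fold apart, as reported (diamond) and with each of 10 alternatives (open circle); dashed lines mark 2-fold. Cxcl12, Ccl11, Ccl22 and Cxcr6 stay past 2-fold throughout, and Ccl20, Cxcr4 and Ccr2 each fall under it with 2 alternatives.

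Other genes of the chemokine system were described by 4 lists with 66 genes above the floor. Of these, 7 were bulge-high and 7 hairshaft-high, together 21.2%, beside 16.4% of all genes above the floor that were 2-fold apart in either direction. Of 13 atypical receptors and related ligands, 3 (23.1%) were bulge-high, beside 11.4% of all genes, and 2 (15.4%) hairshaft-high, beside 4.91%. Their median log2 difference was 0.10, against 0.00 over all genes. Ackr1, the chemokine-binding receptor of venules, was 3.29-fold higher in the bulge. The attractant chemerin (Rarres2) was 3.30-fold higher there, and its receptor Cmklr1, at 2.32-fold, was under 2-fold when its probe sets were averaged (log2 0.61) and with the offset (0.77). Ackr4, which removes Ccl19, Ccl21 and Ccl25, was 2.11-fold higher in the hairshaft, but not past 2-fold when its probe sets were averaged (log2 -0.67), with plain probe sets (-0.61) or with the offset (-0.99). Of 27 genes of receptor signalling, 24 were under 2-fold apart, and the list median was -0.17. The exceptions were Grk5 and Gng2 (7.41%), higher in the bulge, and Rgs2 (3.7%), higher in the hairshaft. Grk5, a kinase that desensitises receptors, had a log2 difference of 1.71, which was 0.85 when its probe sets were averaged. Gng2, a G protein subunit, had one of 1.09, which was -0.02 with averaged probe sets, 0.76 with the offset and 0.93 with quantile normalization.

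Of 10 genes that cut or display chemokines, 1 (Ctsg, 10%) was bulge-high and 2 (Mmp9 and Sdc4, 20%) were hairshaft-high, beside the same 11.4% and 4.91%, with a list median of -0.33. Ctsg, with a log2 difference of 1.14, was under 2-fold with the median floor (0.53) and the offset (0.46). The direction of Sdc4 turned with plain probe sets (log2 1.87 in place of -1.26) and with averaged ones (0.30). Of 16 inducers and regulators of chemokine genes, 13 were under 2-fold apart, among them Rela, Relb and Irf1, 1 (6.25%) was bulge-high and 2 (12.5%) hairshaft-high, with a median of -0.18. Nfkbiz, an inducible partner of NF-kappaB, was 2.77-fold higher in the bulge, and just under 2-fold (log2 0.96) when its probe sets were averaged. Tnf was 2.60-fold and Tslp, an epithelial cytokine, 7.46-fold higher in the hairshaft, at 3.24 on the bulge array against 6.14 on the hairshaft array for Tslp. The log2 difference of Tnf was -1.38, but -0.76 with the offset and -0.78 with the 99th percentile floor.

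**Figure D5:**
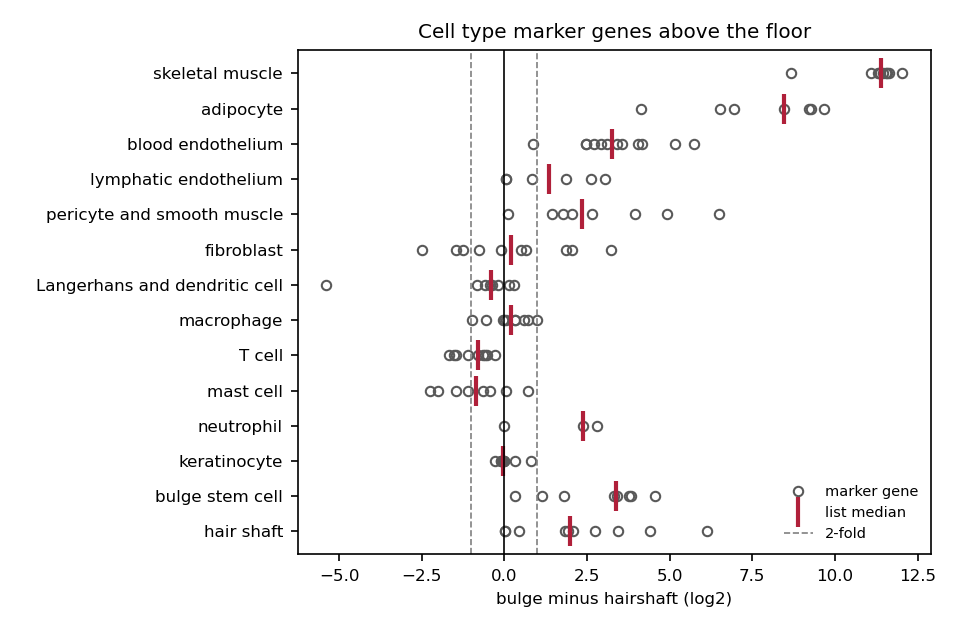
Log2 difference, bulge minus hairshaft (x axis), of marker genes above the floor for each cell type (open circles) with the list median (red bar); dashed lines mark 2-fold. Skeletal muscle, adipocyte and endothelial markers lie to the right, T cell and mast cell markers mostly to the left, and keratinocyte markers near 0; no B cell marker was above the floor.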

How the data were processed

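The authors summarised each probe set with GCRMA and deposited log2 values, per the submitters' processing notes, which state no version. The values run from 2.23 to 15.36, which fits a log2 scale. Per the labels' protocols, RNA from laser-dissected, eosin-stained frozen skin was amplified before labelling, which can change low values. The correlation of both arrays over genes above the floor was 0.90. All columns were used (0 unmatched).

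The platform annotation gave 34958 probe sets 1 symbol, 932 several and 9211 none; 4 probe sets with several symbols that include a chemokine name were left out. Each gene took its probe set with the highest mean. The floor was the 95th percentile of 80 olfactory and vomeronasal receptor probe sets per array. Genes above it on at least 1 array were counted at 2-fold and 8-fold. With 0 residual degrees of freedom there was no test and no error, and the number of arrays limits the precision. Members at least 2-fold apart were described in full, others by value or count. Members, lists and pairs were chosen with earlier results of these data known. The counting was tested on simulated data in which the changed genes lay well above the floor, so that test does not cover genes near it. The scripts used pandas 2.3.3, statsmodels 0.14.6, numpy 2.4.6 and matplotlib 3.10.9 under Python 3.11.15.

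The 9 listed alternatives were quantile normalization, loess removal (span 0.3), subtraction of the median difference, an offset of 16, averaging of a gene's probe sets, plain probe sets (no _x_at, _s_at or _a_at), and 3 floors: the 99th percentile of the same receptor probe sets, the array's median, and none. A further 1, chosen after seeing the data, left out probe sets differing by under 0.005 between the arrays.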

Additional observations from a re-analysis of the deposited data

How the results depend on the processing

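The count of members at least 2-fold higher in the bulge was 6 of 28, beside 11.4% of all genes. With the offset of 16 it was 3 of 28, beside 8.85%, since adding a constant shrinks differences of dim genes. With the 99th percentile floor it was 4 of 15, beside 11.8%. With the other alternatives it was within 1.5 times of 6, beside 8.46% to 12.5% of all genes. The count for the hairshaft stayed at 1 with each of the 10 alternatives, beside 3.29% to 5.84% of all genes. Of 70 values of the 7 members at least 2-fold apart, 16 moved by over 1.5-fold and 0 changed direction. Of 182 values of the other members above the floor, 3 moved by over 1.5-fold and 2 passed 2-fold (Ccl9 with the mean of probe sets and Cxcl1 with plain probe sets). The medians of ligands and receptors were 0.56 and 0.37 with the 99th percentile floor, which left 12 ligands and 3 receptors. Signals near or below the floor limit Ccl11, Cxcr4, Ccl20 and Cxcr6. For Ccl11, below the floor on the hairshaft array, the log2 difference of 3.82 was 2.28 with the 99th percentile floor and 2.24 with the offset. No paired analysis was possible because each structure has 1 array. Leaving out a replicate was not possible for the same reason.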

Other observations

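Identical values on both arrays were frequent among dim probe sets. Of all probe sets with a mean under 2.5 (log2), 89.1% differed by under 0.005 between the arrays. The share was 55.2% between 2.5 and 3, 29.4% between 3 and 4, 12.4% between 4 and 5, and 1.08% at 8 and above. Of the 28 chemokine and receptor genes above the floor, 5 (17.9%) read the same in this way, namely Ccl2, Cxcl9, Ccr4, Ccr7 and Cxcr3, against 9.58% of all genes above the floor. Without such probe sets the medians were 0.03 for 17 ligands and -0.10 for 6 receptors, beside -0.02 over all genes. Of the 23 genes that differed, 11 were higher in the bulge and 12 in the hairshaft.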
